A study of Mus musculus with 18 samples.

Results

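The genes described here are 10 inhibitory receptors and phosphatases of B cells, namely Btla, Cd22, Cd72, Fcgr2b, Siglecg, Lair1, Pirb, Cd5, Ptpn6 and Inpp5d. They are the rows of the deposited expression table that carry these symbols, 10 of 21761 genes. All 10 passed the filter on low values, a level above 1 FPKM (reads scaled by exon length and by library depth) in 2 or more libraries, as did 11522 genes in all, although Cd5 passed only through its naive B cell libraries, so its fall from those cells is given with no test. The members were chosen by name for their shared role. Btla was also selected on its FPKM in plasma cells, since the study named it as higher in Dnmt3-deficient than in Dnmt3-sufficient ones, so its values in plasma cells are given as a description with no test.

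RNA-seq was made from 18 libraries of 5000 sorted mouse cells each, in 6 groups of 3. Naive follicular B cells (nB) were B220+ Fas- GL7- cells from lymph nodes of mice that had not been immunized. Germinal center B cells (GCB) were B220+ Fas+ GL7+ lymph node cells that bound phycoerythrin (PE). Plasma cells of the bone marrow (BMPC) were CD138+ cells. The study's cytometry panels also held antibodies to CD11b, CD11c, CD90.2 and Ly6-G, a gate that would take out T cells and most myeloid cells. GCB and BMPC were taken 30 days after subcutaneous immunization with PE in complete Freund's adjuvant. Mice were 8 to 12 weeks old, of the strain labelled B6;129S4-Dnmt3atm3.1Enl Dnmt3btm5.1Enl/Mmnc, and all carried floxed alleles of both de novo DNA methyltransferase genes. Dnmt3-sufficient mice were Dnmt3afl/flDnmt3bfl/fl without cre, and Dnmt3-deficient mice were Dnmt3afl/flDnmt3bfl/fl and expressed Cre recombinase in B cells. The loss of Dnmt3a and Dnmt3b cannot be told apart from the presence of the cre allele. Each GCB library pooled 2 mice.

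Inhibitory receptors of B cells raise the threshold for activation through the B cell receptor. When the B cell receptor is engaged, the kinase Lyn phosphorylates tyrosines in the cytoplasmic tails of these receptors, within the immunoreceptor tyrosine-based inhibitory motif (ITIM). The phosphorylated motif binds the tyrosine phosphatase SHP-1 (Ptpn6) or the inositol phosphatase SHIP-1 (Inpp5d), which remove phosphates from activating kinases and adaptors or from membrane phosphoinositides. Plasma cells are known to lose most surface proteins of the naive B cell program, while the IgG receptor Fcgr2b is known to be kept on them.

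The motif is shown here because its tyrosine is what joins the receptors to the phosphatases of the same list. It was sought as isoleucine, valine, leucine or serine, then any residue, tyrosine, 2 residues of any kind, and isoleucine, valine or leucine, in the translated coding sequences of GENCODE vM1 transcripts on the mouse build NCBIM37 (mm9). The switch motif (ITSM) of Btla was sought as threonine, any residue, tyrosine, 2 residues of any kind, and valine or isoleucine. Of 21637 genes with a complete coding sequence, 10360 (47.9%) held an ITIM match somewhere in the protein, so a match alone is common. On the cytoplasmic side of the predicted membrane span, Cd22 held 4 matches, Siglecg and Pirb 3 each, Cd72 and Lair1 2 each, and Btla, Fcgr2b and Cd5 1 each. Inpp5d held no match in its whole protein. The runs below cover 18 coding bases around the tyrosine, with its codon in capitals. They are given for Btla, Cd22 and Cd72, which fell from nB to GCB, as Pirb and Lair1 (not printed) also did. Those of Fcgr2b are given as it was the receptor with the highest mean level in BMPC of each genotype.
Btla, ITIM at tyrosine 274: attgttTATgcttctttg
Btla, ITSM at tyrosine 299: acagaaTATgcatccatt
Cd22, ITIM at tyrosine 783: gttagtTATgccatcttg
Cd22, ITIM at tyrosine 817: gtcactTACtcggtgata
Cd22, ITIM at tyrosine 843: atccatTACtcagagctg
Cd22, ITIM at tyrosine 863: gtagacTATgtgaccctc
Cd72, ITIM at tyrosine 7: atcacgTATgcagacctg
Cd72, ITIM at tyrosine 39: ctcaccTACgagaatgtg
Fcgr2b, ITIM at tyrosine 319: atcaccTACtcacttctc
Both Btla runs lie in exon 6 on the plus strand, at chr16:45250603-45250620 and chr16:45250678-45250695. The Cd22 runs lie on the minus strand in exons 12 (chr7:31652513-31652530), 13 (chr7:31652052-31652069) and 14 (chr7:31651619-31651636 and chr7:31651559-31651576). Those of Cd72, also on the minus strand, lie in exons 1 (chr4:43467370-43467387) and 2 (chr4:43467178-43467195), near the start of the protein, as Cd72 is a type II membrane protein. The Fcgr2b run lies in exon 8 on the minus strand, at chr1:172891202-172891219.

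The nB libraries had 6692516 to 8987922 reads on genes, GCB libraries 7644544 to 8903872, and BMPC libraries 1355231 to 3803197, so values in BMPC rest on the fewest reads. Cell type labels were checked against marker lists. In both genotypes, 7 of 7 naive markers were called lower in BMPC than in nB, 7 of 8 germinal center markers were higher in GCB than in nB, and 7 of 8 plasma cell markers were higher in BMPC. Values for Dnmt3a and Dnmt3b cover the whole gene and not the deleted exons, so they check the genotype labels only weakly, and the ranges of the genotypes overlapped for Dnmt3a in each cell type (2.35 to 5.18 against 2.24 to 4.34 FPKM in nB). Those for Dnmt3b overlapped in nB and BMPC. In GCB, Dnmt3b was 0 to 0.676 FPKM in the libraries labelled Dnmt3-sufficient and 0.744 to 1.10 FPKM in those labelled Dnmt3-deficient, without overlap and higher in the latter.

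The members were B cell genes at widely different levels. The FPKM scale divides by exon length, so levels may be set beside each other. Summed over the 10 genes, nB held 2621 to 3058 FPKM, GCB 831 to 1151 FPKM and BMPC 79.6 to 278 FPKM. Ptpn6 was the most abundant member in nB and GCB of both genotypes by mean level, and Cd5 the least abundant. In BMPC the highest group means were those of Ptpn6 and Fcgr2b, in both genotypes.

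**Figure D1:**
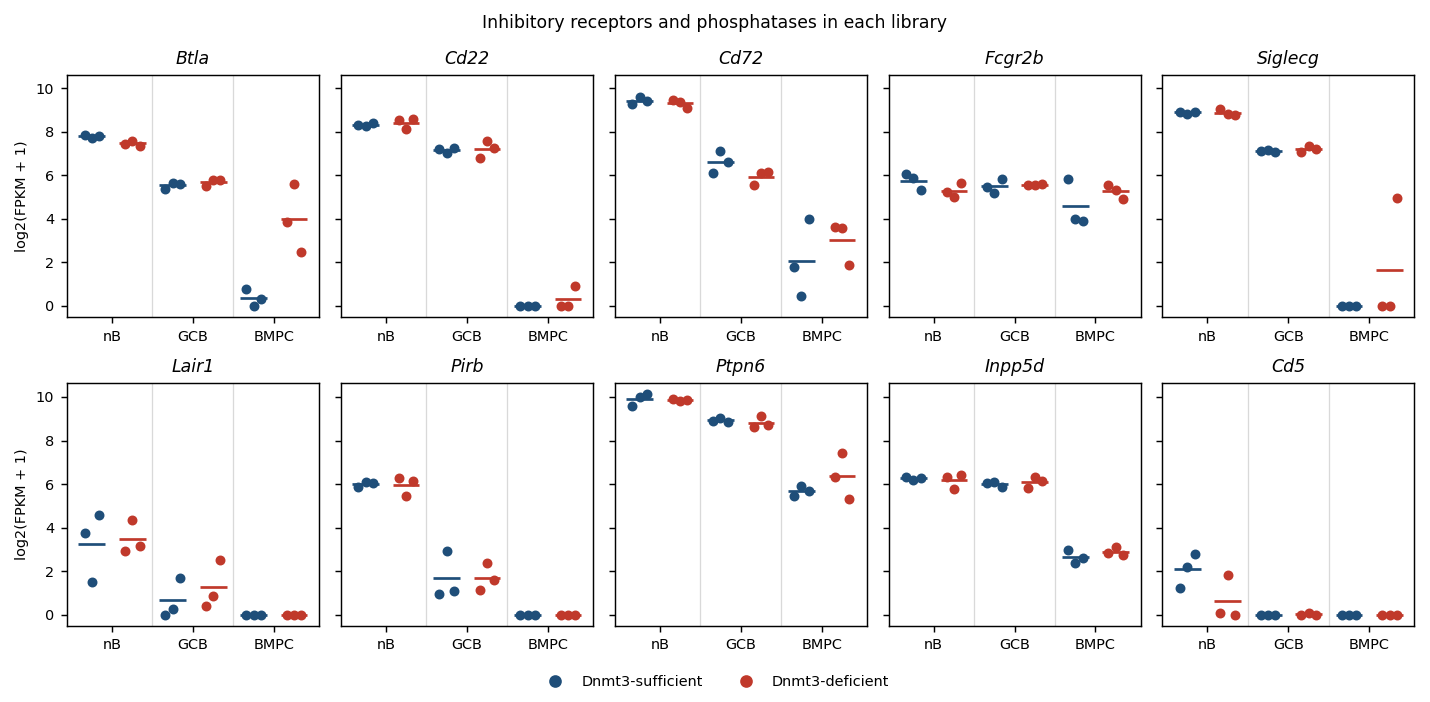
Level of each member in each library. The vertical axis is log2(FPKM + 1), points are libraries in order of replicate number, lines are group means (n = 3), blue is Dnmt3-sufficient and red Dnmt3-deficient. Most members step down from nB to GCB to BMPC, Fcgr2b stays between 13.8 and 65.3 FPKM throughout, and the Btla points of the genotypes lie apart in BMPC.

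Btla (chr16:45224428-45253008, plus strand) encodes a receptor that binds the herpesvirus entry mediator HVEM and carries the ITIM and ITSM printed above. In Dnmt3-sufficient nB it measured 228, 209 and 224 FPKM in replicates 1, 2 and 3, and in Dnmt3-deficient nB 173, 191 and 164 FPKM. The values of the genotypes did not overlap, with every Dnmt3-deficient library lower. The same libraries were also split by 7 erythroid markers, which summed to 0.705 to 1.42 FPKM in Dnmt3-sufficient and 26.5 to 290 FPKM in Dnmt3-deficient nB, with the hemoglobin genes Hba-a2 (5.21, adjusted p = 0.0228, limma) and Hbb-bs (4.67, adjusted p = 0.0286, limma) called higher and 3 of the 7 at 0 throughout. Their part in the Btla values was not tested. In GCB it measured 39.9, 49.6 and 48.1 FPKM in Dnmt3-sufficient and 45.1, 53.5 and 53.3 FPKM in Dnmt3-deficient cells, which overlapped. From nB to GCB Btla thus fell to 20.8% ± 2.38 (SD, n = 3) of its nB mean in Dnmt3-sufficient and 28.8% ± 2.71 (SD, n = 3) in Dnmt3-deficient cells. The difference on the log2(FPKM + 1) scale was -2.25 (SE 0.52, adjusted p = 0.00675, limma) and -1.78 (SE 0.52, adjusted p = 0.0303, limma), and the interaction, 0.47 (95% CI -1.10 to 2.04), was not called (adjusted p = 1). These SEs rest on 1 spread over all 18 libraries, the BMPC ones included, so they do not measure the spread within nB and GCB alone. The call in Dnmt3-deficient cells held in 20 of 30 alternatives. It was lost with a pseudocount of 0.1 (adjusted p = 0.144) and without any of the 6 Dnmt3-deficient nB or GCB libraries (adjusted p = 0.0694 to 0.102), at differences of -1.70 to -1.83.

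In Dnmt3-sufficient BMPC Btla measured 0.704, 0 and 0.256 FPKM, which are 5, 0 and 3 reads. In Dnmt3-deficient BMPC it measured 13.6, 47.2 and 4.64 FPKM, which are 72, 207 and 34 reads. The ranges did not overlap, but the Dnmt3-deficient libraries spanned 2.64% to 26.9% of the Dnmt3-deficient nB mean, and their SD (22.4 FPKM) was as large as their mean (21.8 FPKM). The highest, replicate 2, lay within the range of Dnmt3-sufficient GCB. It was also the shallowest library of the series, with 1355231 reads, and had the highest Ptpn6 of the BMPC libraries. The difference between genotypes on the log2(FPKM + 1) scale was 3.62, and since it is the contrast Btla was chosen for, no test is given. With any BMPC library left out it ranged from 2.82 to 4.36.

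Cd22 (chr7:31650421-31665361, minus strand), a sialic acid binding lectin with the 4 cytoplasmic motifs printed above, was nearly absent from plasma cells. It measured 314, 309 and 341 FPKM in Dnmt3-sufficient nB and 372, 277 and 385 FPKM in Dnmt3-deficient nB. GCB held 146, 129 and 153 FPKM in Dnmt3-sufficient and 109, 187 and 151 FPKM in Dnmt3-deficient cells. The genotypes overlapped in both cell types, while the nB and GCB values lay apart. Cd22 had no read in 5 of 6 BMPC libraries and 10 reads (0.906 FPKM) in Dnmt3-deficient replicate 3. Taking 3 reads per library as the floor, Cd22 was at least 1576-fold higher in Dnmt3-sufficient nB than in BMPC. From nB to GCB it fell in both genotypes, with a difference of -1.17 (SE 0.32, adjusted p = 0.0195) in Dnmt3-sufficient and -1.22 (SE 0.32, adjusted p = 0.0162) in Dnmt3-deficient cells on the log2(FPKM + 1) scale. These calls held in 20 and 23 of 30 alternatives, in that order, and a pseudocount of 0.1 made neither (adjusted p = 0.344 and 0.33). The first was lost without any of the 6 Dnmt3-sufficient nB or GCB libraries (adjusted p = 0.0502 to 0.0799), and the second without Dnmt3-deficient nB replicate 1 or 3 or GCB replicate 1 or 3 (adjusted p = 0.0518 to 0.0989).

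Siglecg (chr7:50663574-50673728, plus strand), the other sialic acid binding lectin of the list followed the order of Cd22. It measured 481, 456 and 485 FPKM in Dnmt3-sufficient nB, 531, 449 and 429.8 FPKM in Dnmt3-deficient nB, 136, 142 and 134 FPKM in Dnmt3-sufficient GCB and 134, 163 and 148 FPKM in Dnmt3-deficient GCB. The highest GCB library held 34.6% of the nB mean of its genotype. It had no read in 5 of 6 BMPC libraries, and 170 reads (30.2 FPKM) in Dnmt3-deficient replicate 3, the same library that alone held Cd22 reads. In Dnmt3-sufficient cells its nB mean was at least 1184-fold the BMPC floor. The GCB to nB difference, -1.78 (SE 0.85, adjusted p = 0.192) and -1.66 (SE 0.85, adjusted p = 0.248), was not called when all 18 libraries shared 1 spread per gene. Without Dnmt3-deficient BMPC replicate 3 it was called in both genotypes (adjusted p = 3.35e-05 and 7.41e-05), at the same size. BMPC were lower than nB by -8.89 and -7.22 (adjusted p = 7.22e-07 and 7.25e-06) on the log2(FPKM + 1) scale in the order Dnmt3-sufficient, Dnmt3-deficient.

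Cd72 (chr4:43459334-43467500, minus strand), a lectin-like receptor that binds semaphorin Sema4d, was the receptor with the highest nB level. It measured 624, 762 and 686 FPKM in Dnmt3-sufficient nB and 698, 666 and 548 FPKM in Dnmt3-deficient nB. In GCB it measured 68.1, 136 and 98.2 FPKM and 45.5, 67.9 and 69.7 FPKM, in the same order of genotypes. GCB kept 14.6% ± 4.91 (SD, n = 3) and 9.58% ± 2.12 (SD, n = 3) of the nB mean, and every GCB library lay below every nB library. The difference between GCB and nB was -2.82 (SE 0.64, adjusted p = 0.0059) and -3.38 (SE 0.64, adjusted p = 0.00161) on the log2(FPKM + 1) scale by limma. In BMPC Cd72 was low but present in all 6 libraries, at 2.42, 0.350 and 14.8 FPKM (8, 2 and 81 reads) in Dnmt3-sufficient and 11.4, 10.8 and 2.64 FPKM (28, 22 and 9 reads) in Dnmt3-deficient cells. These genotype values overlapped, and their difference, 0.95 (95% CI -0.41 to 2.32), was not called (adjusted p = 0.44).

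Fcgr2b (chr1:172890689-172906678, minus strand), the inhibitory receptor for the Fc part of IgG, had reads in every library of the 3 cell types. It measured 65.3, 58.1 and 39.4 FPKM in Dnmt3-sufficient nB, 36.8, 30.9 and 48.3 FPKM in Dnmt3-deficient nB, 43.3, 35.1 and 55.9 FPKM in Dnmt3-sufficient GCB and 46.2, 45.4 and 48 FPKM in Dnmt3-deficient GCB. In BMPC it measured 56.7, 15 and 13.8 FPKM in Dnmt3-sufficient and 46.2, 38.5 and 29.1 FPKM in Dnmt3-deficient cells. All neighbours in the order of its 6 group means overlapped, and the group means spanned only 28.5 to 54.3 FPKM. The differences between GCB and nB were -0.27 (95% CI -1.20 to 0.66) and 0.29 (95% CI -0.64 to 1.22), neither called. Dnmt3-sufficient BMPC were called lower than nB (-1.18, SE 0.44, adjusted p = 0.0427). That call was lost without Dnmt3-sufficient BMPC replicate 2 (-0.89, adjusted p = 0.146) or 3 (-0.83, adjusted p = 0.162), and was -1.81 (adjusted p = 0.000768) without replicate 1. It held in 13 of 29 alternatives. Dnmt3-deficient BMPC differed from nB by -0.03 (95% CI -0.96 to 0.90, adjusted p = 0.985), and the interaction, 1.15 (95% CI -0.16 to 2.47), was not called (adjusted p = 0.484).

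Pirb (chr7:3663011-3671993, minus strand, named Lilrb3 in the annotation), a receptor for MHC class I, showed the largest difference between GCB and nB among the members on the log2(FPKM + 1) scale. It measured 58.1, 66.3 and 64.1 FPKM in Dnmt3-sufficient nB and 77.4, 42.4 and 68.6 FPKM in Dnmt3-deficient nB, against 0.947, 6.69 and 1.12 FPKM and 1.17, 4.17 and 1.97 FPKM in GCB. The difference was -4.33 (SE 0.52, adjusted p = 2.15e-05) in Dnmt3-sufficient and -4.26 (SE 0.52, adjusted p = 2.66e-05) in Dnmt3-deficient cells. All 6 BMPC libraries had no Pirb read, which puts nB at least 232-fold above the 3-read floor in Dnmt3-sufficient and at least 129-fold in Dnmt3-deficient cells. Pirb and its activating paralogs Pira2 and Lilra6 are near-identical in stretches and may share or split reads, so its level is uncertain. Both paralogs fell with it: Pira2 measured 7.75 to 16.1 FPKM and Lilra6 8.11 to 17.3 FPKM in nB, and neither had a read in BMPC. Of 14 paralogs and signal chains of Pirb and Fcgr2b listed, 5 passed the filter, and from nB to GCB 1 was called higher and 3 lower in each genotype. Over all genes 7.22% were higher and 6.93% lower in Dnmt3-sufficient cells, and 6.31% and 6.61% in Dnmt3-deficient cells.

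Lair1 (chr7:3958675-4014806, minus strand), a collagen receptor, and Cd5 (chr19:10792633-10813464, minus strand), a scavenger-family receptor that restrains antigen receptor signals, were the lowest members. Lair1 measured 12.3, 1.8 and 22.8 FPKM in Dnmt3-sufficient nB and 6.58, 19.2 and 7.85 FPKM in Dnmt3-deficient nB. GCB held 0, 0.216 and 2.18 FPKM and 0.330, 0.783 and 4.77 FPKM, and no BMPC library had a read. GCB overlapped nB in Dnmt3-sufficient cells only. The calls of Lair1 between GCB and nB (-2.62, adjusted p = 0.0188, and -2.21, adjusted p = 0.0489) held in 23 and 10 of 30 alternatives.

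Cd5 measured 1.37, 3.54 and 5.97 FPKM in Dnmt3-sufficient nB (19, 56 and 111 reads) and 0.0605, 2.55 and 0 FPKM in Dnmt3-deficient nB (1, 37 and 0 reads). A single GCB library had a read, and no BMPC library did. The Dnmt3-deficient libraries were lower on average but overlapped the others, because replicate 2 lay between Dnmt3-sufficient replicates 1 and 2. The genotype difference in nB, -1.44 (95% CI -2.36 to -0.52), had an unadjusted p of 0.00415 by limma and an adjusted p of 0.723, so it was not called.

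The nB libraries with the most Lair1 and Cd5 were also rich in markers of other cells. Both were highest in Dnmt3-sufficient replicate 3, and within the Dnmt3-deficient nB both were highest in replicate 2. Summed over 10 T cell markers, the Dnmt3-sufficient nB libraries held 33.7, 56.0 and 126 FPKM and the Dnmt3-deficient ones 41.4, 102 and 71.1 FPKM, so the same 2 libraries stood highest. The 8 dendritic cell markers summed to 97.5, 104 and 220 FPKM and 121, 239 and 143 FPKM, again with these 2 libraries on top. The 11 macrophage and monocyte markers summed to 24.5, 2.90 and 75.9 FPKM and 26.9, 52.1 and 44.4 FPKM, with the same 2 libraries highest within their genotypes. Most of that sum was Cd68 in the 2 libraries (69.6 and 45.0 FPKM), while Csf1r, Cd14 and C1qc were at 0 in all 6. The T cell markers had reads for all 10 genes in each genotype, among them Cd3g (5.26 to 38.9 FPKM) and Cd8b1 (2.64 to 43.0 FPKM). Of the dendritic cell markers, Clec9a was at 0 in all 6 nB libraries, while the plasmacytoid marker Siglech reached 99.1 and 115 FPKM in these 2 libraries. The CD11b, CD11c and CD90.2 gate would remove many such cells, and their part in the Lair1 and Cd5 values was not tested. Without both libraries, an alternative chosen after seeing the data, the GCB to nB differences of Lair1 were no longer called (-1.96, adjusted p = 0.0969, and -1.77, adjusted p = 0.137). The Cd5 genotype difference in nB was then -1.67. It is given with no test, since Cd5 then passed the filter only through the Dnmt3-sufficient nB libraries left.

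**Figure D2:**
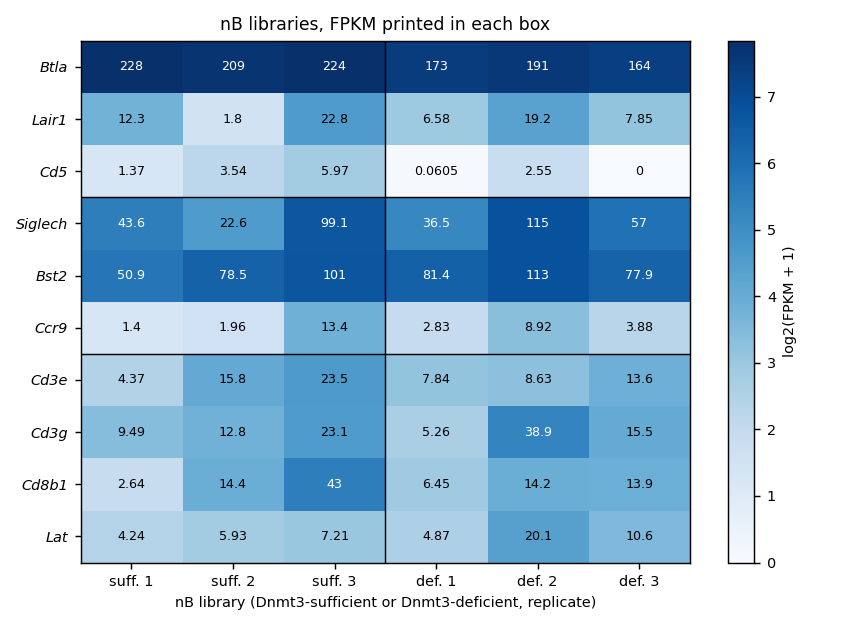
Btla, Lair1, Cd5 and markers of dendritic cells (Siglech, Bst2, Ccr9) and T cells (Cd3e, Cd3g, Cd8b1, Lat) in the 6 nB libraries, with FPKM printed in each box and log2(FPKM + 1) as color. Lair1 (22.8 and 19.2 FPKM) and Siglech (99.1 and 115 FPKM) are highest in Dnmt3-sufficient replicate 3 and Dnmt3-deficient replicate 2, whereas Btla shows no such peak.

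Ptpn6 (chr6:124670725-124688732, minus strand), which encodes SHP-1, was the most abundant member in nB and GCB and stayed above 39 FPKM in BMPC. It measured 765, 1007 and 1114 FPKM in Dnmt3-sufficient nB, 973, 890.5 and 937 FPKM in Dnmt3-deficient nB, 477, 530.0 and 458 FPKM in Dnmt3-sufficient GCB and 393, 551 and 414 FPKM in Dnmt3-deficient GCB. Every GCB library lay below every nB library, at 50.8% ± 3.88 and 48.5% ± 9.21 (SD, n = 3) of the nB mean. The differences, -0.96 (adjusted p = 0.0744) and -1.06 (adjusted p = 0.0516), missed the threshold. Voom on the recovered reads called both (-1.07, adjusted p = 0.000113, and -1.08, adjusted p = 0.000317), and in Dnmt3-deficient cells so did quality weights (adjusted p = 3.68e-05), the fit to the compared groups (adjusted p = 0.00511), the stricter filter (adjusted p = 0.0474) and the fits without Dnmt3-deficient BMPC replicate 2 (adjusted p = 0.00354) or 3 (adjusted p = 0.00606). BMPC held 43.4, 60.1 and 50.8 FPKM in Dnmt3-sufficient and 78.0, 174 and 39.2 FPKM in Dnmt3-deficient cells. nB exceeded BMPC 18.7-fold in Dnmt3-sufficient and 9.63-fold in Dnmt3-deficient cells (-4.19, adjusted p = 1.53e-07, and -3.51, adjusted p = 1.25e-06), a call that voom on the recovered reads did not make (adjusted p = 0.0699 and 0.148).

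Inpp5d (chr1:89516887-89617082, plus strand), which encodes SHIP-1, was level between nB and GCB and low in BMPC. It measured 78.9, 72.9 and 75.4 FPKM in Dnmt3-sufficient nB, 80.3, 53.3 and 83.9 FPKM in Dnmt3-deficient nB, 64.2, 66.5 and 58.0 FPKM in Dnmt3-sufficient GCB and 56.0, 78.2 and 69.0 FPKM in Dnmt3-deficient GCB. The differences between GCB and nB were -0.27 (95% CI -0.91 to 0.38) and -0.08 (95% CI -0.73 to 0.56), so a change by a factor of about 2 lies outside both intervals. BMPC held 6.95, 4.12 and 5.09 FPKM and 6.02, 7.55 and 5.76 FPKM, or 7.11% ± 1.9 and 8.89% ± 1.34 (SD, n = 3) of nB. That fall was called in both genotypes (-3.61, SE 0.31, adjusted p = 1.93e-07, and -3.28, SE 0.31, adjusted p = 6.53e-07). Ptpn6 and Inpp5d had reads in all 18 libraries, as did Cd72 and Fcgr2b, while the other 6 members did not.

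Counted over the list, all calls between cell types were downward, in the order nB, GCB, BMPC. A member was called where the adjusted p was at most 0.05 and the difference at least 1 on the log2(FPKM + 1) scale. Cd5 is left out of these counts. From nB to GCB, 5 of 9 members were called lower in each genotype (Btla, Cd22, Cd72, Lair1 and Pirb), and none higher. Over all genes tested, 6.93% were lower and 7.22% higher in Dnmt3-sufficient cells, and 6.61% lower and 6.31% higher in Dnmt3-deficient cells. The median difference of the 9 members was -1.78 and -1.66, against -0.11 and -0.13 over all genes. Leaving out any of the 6 Dnmt3-deficient nB or GCB libraries took the count of 5 to 2 or 3.

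BMPC differed from both other cell types in most members. Btla was left out here too, which leaves 8. Against nB, 8 of 8 were called lower in Dnmt3-sufficient and 7 of 8 in Dnmt3-deficient BMPC, where Fcgr2b was not called. The share of all genes called lower was 27.6% and 30.6%, and called higher 9.74% and 6.85%, in that order. Against GCB, the 6 members Cd22, Cd72, Siglecg, Pirb, Ptpn6 and Inpp5d were called lower in each genotype, beside 20.9% of all genes lower and 6.67% higher in Dnmt3-sufficient cells and 26.1% lower and 6.14% higher in Dnmt3-deficient cells. Median differences of the 8 members were -5.09 and -4.73 against nB (all genes -0.70 and -0.84) and -3.29 and -2.68 against GCB (all genes -0.56 and -0.73). In bulk samples, fewer cells of a type and less RNA per cell cannot be told apart.

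**Figure D3:**
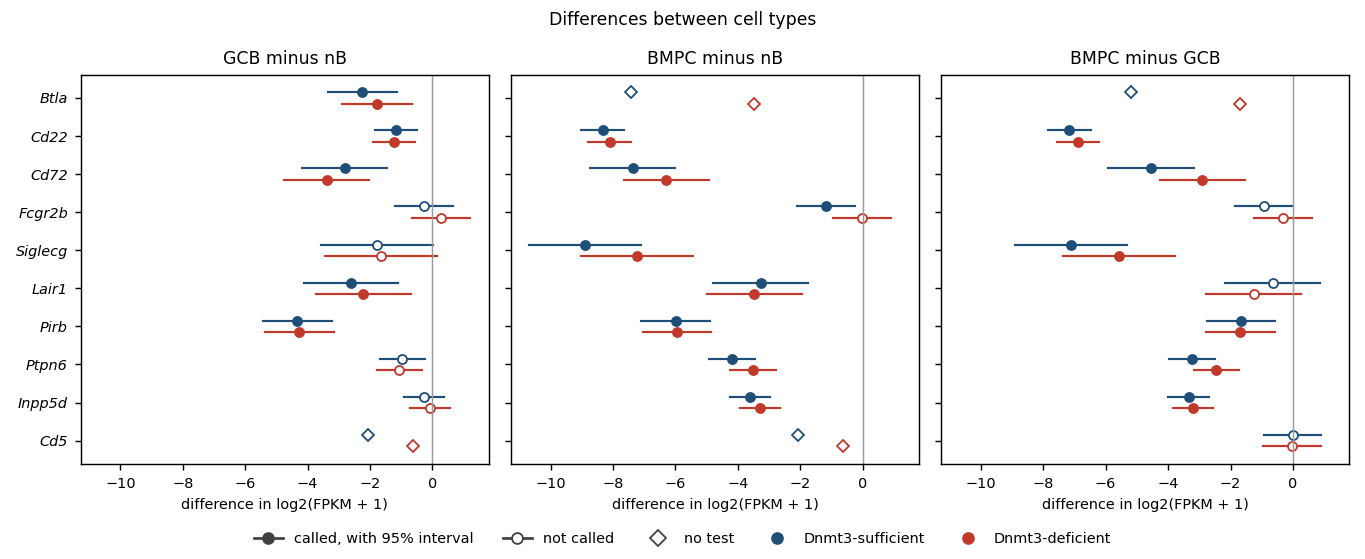
Differences between cell types for each member, on the log2(FPKM + 1) scale, with 95% intervals from limma. Filled points were called, open points were not, and diamonds, for Btla in BMPC and for Cd5 against nB, are values with no test. All called points lie left of 0, and Fcgr2b lies nearest to 0 in BMPC minus nB among the receptors with levels above 10 FPKM.

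Between genotypes, no member was called in nB, GCB or BMPC by limma. In nB 0 of 10 were called, beside 0.0521% of all genes (312 of 11522 genes at an unadjusted p under 0.05), and 1 (Cd5) had an unadjusted p under 0.05. In GCB 0 of 10 were called, beside 0% of all genes (124 genes at an unadjusted p under 0.05), and none had an unadjusted p under 0.05. In BMPC 0 of 9 were called, beside 3.98% of all genes (2342 of 11522 genes at an unadjusted p under 0.05), and none had an unadjusted p under 0.05. The voom fit on recovered reads also called none in the 3 cell types. Genotype values did not overlap for 1 of 10 members in nB (Btla, lower in Dnmt3-deficient cells, exact permutation p = 0.1, the smallest that 3 against 3 libraries allow), a share near the 8.84% of all genes without overlap. Its difference in nB was -0.33 (95% CI -1.43 to 0.78, adjusted p = 1) on the log2(FPKM + 1) scale. That interval rests on 1 spread over all 18 libraries. The Dnmt3-deficient BMPC libraries (4.64 to 47.2 FPKM) are part of it, so it does not measure the spread within nB. In GCB 0 of 10 were without overlap (10.6% of all genes), and in BMPC 0 of the 9 members other than Btla (10.3% of all genes).

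In BMPC the largest tested genotype difference among the members was that of Siglecg, 1.66 (95% CI -0.14 to 3.45, adjusted p = 0.293), which came from the 1 library with reads. Ptpn6 (0.66, 95% CI -0.07 to 1.39, adjusted p = 0.309), Fcgr2b (0.68, 95% CI -0.25 to 1.61, adjusted p = 0.42) and Cd72 (0.95, adjusted p = 0.44) had positive values, and Cd22 (0.31) and Inpp5d (0.24) smaller positive ones. Leaving out 1 BMPC library made a call in 3 cases: Fcgr2b without Dnmt3-sufficient replicate 1 (1.31, adjusted p = 0.0314), Ptpn6 without Dnmt3-deficient replicate 3 (1.18, adjusted p = 0.0156) and Cd72 without Dnmt3-sufficient replicate 3 (1.92, adjusted p = 0.0345). Over all genes those fits called 716, 677 and 580, in that order, against 459 of 11522 with all libraries. Calls thus rose over all genes too. Lair1, Pirb and Cd5 were at 0 in all 6 BMPC libraries, so a genotype difference was not detectable for them. The test of whether a cell type difference varied with genotype called 0 of 10 members for GCB against nB (0% of all genes, with 204 genes at an unadjusted p under 0.05), 0 of 9 for BMPC against nB (0.555%) and 0 of 9 for BMPC against GCB (0.425%). Members with an unadjusted p under 0.05 numbered 1, 1 and 0, Cd5 in both cases, beside 204, 1373 and 1086 of all 11522 genes. Voom also called no member. Cd5 was near 0 in GCB and at 0 in BMPC, so both values (1.47 and 1.44) restate its genotype difference in nB (-1.44). They are no result of their own, since Cd5 passed the filter only through nB.

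**Figure D4:**
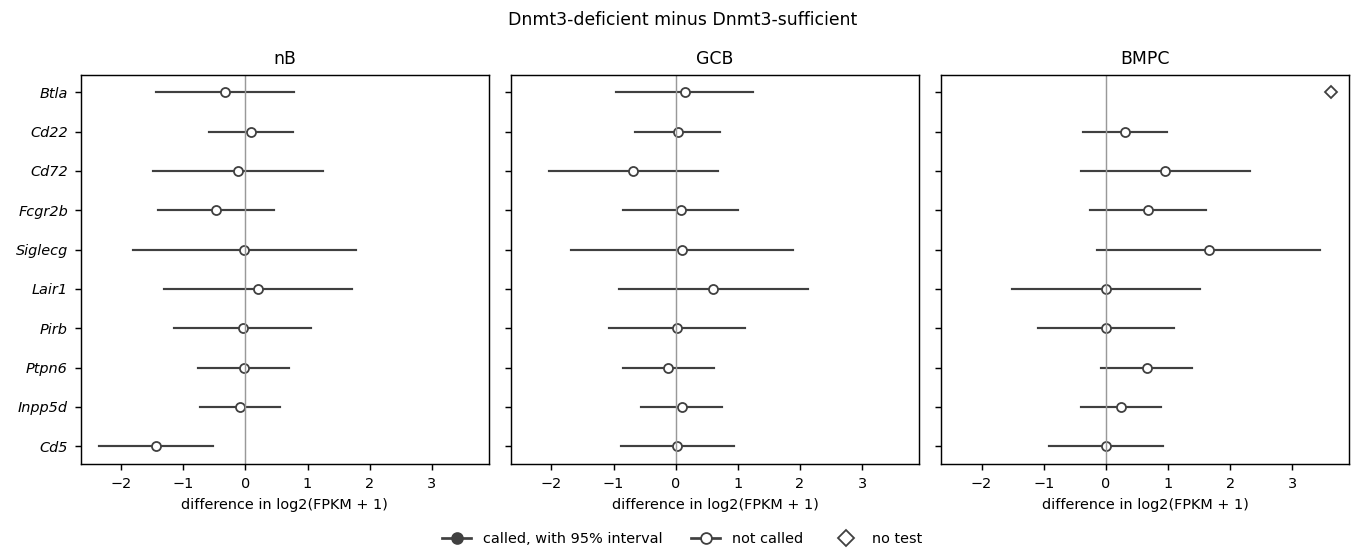
Dnmt3-deficient minus Dnmt3-sufficient differences of each member in nB, GCB and BMPC on the log2(FPKM + 1) scale, with 95% intervals from limma (n = 3 against 3). No interval belongs to a called difference, and the diamond at 3.62 is Btla in BMPC, shown with no test.

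The BMPC libraries also differed in markers of other cells, which are given here beside the Btla values because the part of such cells was not tested. Of 9 markers of B cells other than plasma cells, Cr2, Pax5 and Ciita were at 0 in all 6 BMPC libraries. Ms4a1 was 2.07, 0 and 13.1 FPKM in Dnmt3-sufficient and 24.6, 0 and 0.1 FPKM in Dnmt3-deficient BMPC. The list summed to 4132 to 6538 FPKM in Dnmt3-sufficient and 7272 to 9866 FPKM in Dnmt3-deficient BMPC, without overlap, most of it Cd74. The library with the most Btla, Dnmt3-deficient replicate 2, had no Ms4a1 read.

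T cells, which also express Btla, were represented by 7 of 10 markers with reads in each genotype, although the CD90.2 gate would remove them. Their sum was 79.4, 204 and 207 FPKM in Dnmt3-sufficient and 182, 264 and 274 FPKM in Dnmt3-deficient BMPC, with overlap. Cd8b1 and Bcl11b were at 0 in all 6 BMPC libraries, Cd4 was 0.111 FPKM in 1 library and 0 in the others, and Cd3g was 24.5 to 112 FPKM. Both lists of other marrow cells that follow differed between genotypes without overlap. The 11 macrophage and monocyte markers summed to 68.6 to 92.2 FPKM in Dnmt3-sufficient and 105 to 227 FPKM in Dnmt3-deficient BMPC, and the 7 erythroid markers to 1476 to 2929 FPKM and 192 to 1174 FPKM. Macrophages and monocytes also express Fcgr2b and would mostly be removed by the CD11b gate, and the part of these cells in the member values was not tested. Early B cell markers summed to 686 to 808 FPKM and 415 to 860 FPKM, and neutrophil markers to 110.5 to 566 FPKM and 21.3 to 701 FPKM. The plasma cell regulator Prdm1 was 0.838, 14.5 and 6.14 FPKM in Dnmt3-sufficient and 23.8, 45.2 and 7.15 FPKM in Dnmt3-deficient BMPC, highest in the library with the most Btla. The 8 plasma cell markers summed to 29689, 24029 and 19038 FPKM in Dnmt3-sufficient and 43172, 51658 and 34158 FPKM in Dnmt3-deficient BMPC, without overlap and also highest there. Most of that sum was Jchain, the joining chain of secreted antibody, which took 3.40% to 5.38% of reads in Dnmt3-sufficient and 6.26% to 9.80% in Dnmt3-deficient libraries.

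**Figure D5:**
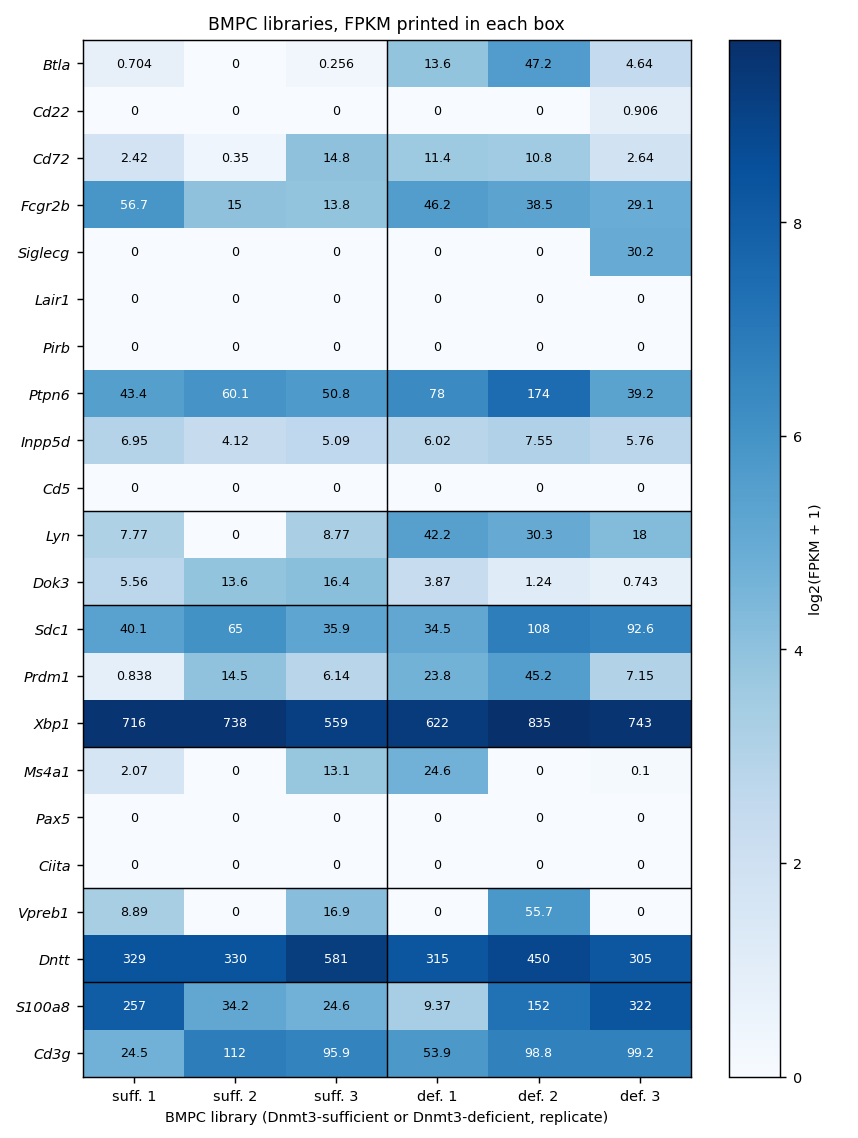
The members, the signaling genes Lyn and Dok3, plasma cell genes (Sdc1, Prdm1, Xbp1) and markers of other cells (Ms4a1, Pax5 and Ciita of B cells, Vpreb1 and Dntt of early B cells, S100a8 of neutrophils, Cd3g of T cells) in the 6 BMPC libraries, with FPKM printed in each box and log2(FPKM + 1) as color. Btla is above 4 FPKM in the 3 Dnmt3-deficient libraries only, Pax5 and Ciita are 0 throughout, and Siglecg has reads in 1 library.

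The genes that act with the members were read from lists of their roles. Of 20 kinases, adaptors and phosphatases of inhibitory signaling, 11 were called lower in BMPC than in nB in each genotype, and 2 (Dnmt3-sufficient) and 0 (Dnmt3-deficient) higher, beside 27.6% and 30.6% of all genes lower and 9.74% and 6.85% higher. Lyn, the kinase that phosphorylates the motifs, was 137 to 152 FPKM in Dnmt3-sufficient nB and 7.77, 0 and 8.77 FPKM in Dnmt3-sufficient BMPC, against 42.2, 30.3 and 18 FPKM in Dnmt3-deficient BMPC. Its genotype difference in BMPC was called (2.74, SE 0.61, adjusted p = 0.0161). Dok3, an adaptor that binds SHIP-1, went the other way, with 5.56, 13.6 and 16.4 FPKM in Dnmt3-sufficient and 3.87, 1.24 and 0.743 FPKM in Dnmt3-deficient BMPC (-2.15, SE 0.43, adjusted p = 0.00851). Neither gene's genotypes overlapped in BMPC, as was so for 10.3% of all genes. They were the only genes of the list called there, beside 3.98% of all genes. These calls of Lyn and Dok3 held in 24 and 26 of 29 alternatives. Both were lost when the 6 BMPC libraries were fitted alone (adjusted p = 0.779), with quality weights (adjusted p = 0.204 and 0.362) and by voom (adjusted p = 0.163 and 0.203). That of Lyn was also lost with a pseudocount of 0.1 (adjusted p = 0.0562) and at an adjusted p of 0.01.

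Ptpn22, a tyrosine phosphatase of lymphocytes, was low in GCB and not in BMPC. It measured 10.1 to 24.7 FPKM in Dnmt3-sufficient nB, 0.0784 to 0.743 FPKM in GCB and 26.1 to 37.6 FPKM in BMPC of that genotype. It fell from nB to GCB in both genotypes (-3.48, adjusted p = 3.62e-05, and -3.38, adjusted p = 5.7e-05) and was higher in BMPC than in GCB (4.64, adjusted p = 1.11e-06, and 3.34, adjusted p = 2.96e-05). The shared phosphatase Ptprc (CD45) was lower in BMPC than in nB (-4.14, adjusted p = 6.14e-06, in Dnmt3-sufficient and -4.32 , adjusted p = 4.59e-06, in Dnmt3-deficient cells).

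Of 26 other inhibitory receptors listed, 19 passed the filter. From nB to GCB, 4 were called lower in each genotype (Fcrl5, Cd274, Pecam1 and Ceacam1), and 0 and 1 (Clec12a, Dnmt3-deficient) higher, beside 6.93% and 6.61% of all genes lower. BMPC had 7 of 19 lower and 2 of 19 higher than nB in each genotype, beside 27.6% and 30.6% of all genes lower and 9.74% and 6.85% higher, so these counts lie near the background. Tigit, a receptor known mainly from T and NK cells, was among those higher, at 24.3 to 61.9 FPKM in Dnmt3-sufficient and 15.1 to 52.1 FPKM in Dnmt3-deficient BMPC against 0 to 3.56 FPKM in GCB (4.56, adjusted p = 0.000375, and 4.05, adjusted p = 0.000881, against GCB). The T cell markers with reads in BMPC are given above, and their part in the Tigit values was not tested. Fcrl1, which is known as an activating coreceptor of B cells although it stood in this list, was its only gene called between genotypes in BMPC (-3.27, adjusted p = 0.0463), with 49.9, 0 and 23.2 FPKM in Dnmt3-sufficient and 0, 0.361 and 0 FPKM in Dnmt3-deficient cells, which overlap. That call held in 4 of 29 alternatives. Over all genes 3.98% were called in that comparison.

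Ligands were followed in 7 genes. Tnfrsf14, which encodes the Btla ligand HVEM, was low throughout, at 0.514 to 10.1 FPKM in Dnmt3-sufficient nB, 0.349 to 4.42 FPKM in GCB and 1.81 to 15.2 FPKM in BMPC of that genotype, and was not called in any comparison. Sema4d, the Cd72 ligand, was lower in BMPC than in nB (-2.46, adjusted p = 0.00432, in Dnmt3-sufficient and -3.41, adjusted p = 0.00037, in Dnmt3-deficient cells). Cmah, which makes the sialic acid form that mouse Cd22 binds best, fell from nB to GCB in both genotypes (-2.74, adjusted p = 1.36e-05, and -2.37, adjusted p = 6.37e-05). Cd47, a ligand of the inhibitory receptor Sirpa, fell there too (-2.53, adjusted p = 3.14e-05, and -2.24, adjusted p = 0.000117). Both Cmah and Cd47 were higher in BMPC than in GCB in both genotypes.

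The activating side of the B cell receptor pathway fell in BMPC as well. Of 19 genes listed, 17 (Dnmt3-sufficient) and 15 (Dnmt3-deficient) were called lower in BMPC than in nB and none higher, beside 27.6% and 30.6% of all genes lower. In GCB 3 in each genotype were lower (Cr2, Prkcb and Malt1), beside 6.93% and 6.61% of all genes. Pik3ap1, an adaptor for phosphoinositide 3-kinase, fell from nB to BMPC (-5.78, adjusted p = 2.71e-09, and -5.56, adjusted p = 4.66e-09). Between genotypes in BMPC, 2 were called, beside 3.98% of all genes. Btk was higher in Dnmt3-deficient cells (3.0, adjusted p = 0.0327), at 14.4, 0.104 and 0.761 FPKM against 61.8, 9.02 and 23.3 FPKM, and Vav1 lower (-2.29, adjusted p = 0.034), at 12.8, 17.3 and 6.74 FPKM against 8.5, 0.488 and 0.194 FPKM. The Btk ranges overlapped, and so did those of Vav1. Both calls were lost when the BMPC libraries were fitted alone, where no gene was called. From these same libraries the study had named Btk among genes less repressed in Dnmt3-deficient BMPC, so its call is not independent.

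The members' own profiles over the 18 libraries were close for some pairs. On the log2(FPKM + 1) scale the highest Pearson correlation was that of Cd22 with Inpp5d (0.988) and the lowest that of Cd5 with Fcgr2b (0.176). Among 11489 genes ranked, the 5 whose profile was most like that of Btla were Mark2 (r = 0.959), 5031414D18Rik (0.958), AB124611 (0.957), Pou2f2 (0.957) and Map4k2 (0.951). These coefficients are descriptions over libraries that fall into separate cell types, and they carry no test. The ranking includes the BMPC values Btla was chosen for. From the same libraries the study had also named Pou2f2 as higher in Dnmt3-deficient BMPC, so its place here is not independent.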

How the data were processed

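RNA-seq of 18 libraries was analysed from the deposited table of FPKM per gene. Per the study's methods, the authors mapped read pairs to mm9 with Tophat, counted reads in exons of UCSC KnownGene models and scaled the counts to FPKM. The table's columns with the authors' own group comparisons (made with edgeR 3.12.1 in R 3.2.2) were not used. Members, gene lists and tests were chosen with earlier results of these data known. Each nB and BMPC library came from a mouse of its own, and each GCB library from 2 pooled mice.

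All FPKM came out as whole reads (within 0.01) after scaling by exon length and depth, which gave the read counts printed. The 11522 genes above 1 FPKM in 2 or more libraries were tested with limma 3.58.1 (R 4.3.3) on log2(FPKM + 1), with 1 mean per group, a trend on intensity and 1 spread per gene over all 18 libraries. Fold changes on this scale are understated for low genes. P-values were two-sided and Benjamini-Hochberg adjusted over all genes tested. Calls required an adjusted p of at most 0.05 and a difference of at least 1. Of each other list, called genes were named, at most 5 per comparison, largest first, beside genes tracked for their role. Of 179 list entries, 13 had no row in the table. Another gene planned for some lists is not reported here. The fit was tested on simulated data. Depth was 1355231 to 8987922 reads per library. Folds against groups at 0 used 3 reads per library, and cover counting error only. Alternatives were a pseudocount of 0.1, no or a stricter filter, another scaling, quality weights, voom on recovered reads, fits to the compared groups alone, sex, a replicate block in GCB, and each library left out in turn.

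The motif plan named RefSeq proteins. Coding sequences of GENCODE vM1 transcripts were translated instead, and the membrane span was taken as the most hydrophobic run of 19 residues after the first 40. RefSeq promoter sequences are of another build and were not used.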

Additional observations from a re-analysis of the deposited data

How the results depend on the processing

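The 60 differences of single genes recomputed under the alternatives were mostly those called in the main fit, so a change of direction was unlikely from the start. None changed direction, while other differences, among them the Fcgr2b values near 0, were not recomputed. The count of members called lower in GCB than in nB in Dnmt3-deficient cells (5) was the least stable: it was 2 with a pseudocount of 0.1, 2 at an adjusted p of 0.01, 3 with the replicate block in GCB, 3 without both nB libraries richest in T cell and dendritic cell markers (chosen after seeing the data), and 2 to 6 with each library left out in turn. In Dnmt3-sufficient cells the calls of Cd22 and Lair1 held in 20 and 23 of 30 alternatives. The recomputed counts there included Cd5, which has no test, and are left out. The count in the BMPC genotype comparison was 0 to 1 with each library left out. The Btla difference in BMPC, which carries no test, was 5.57 with a pseudocount of 0.1 and 5.996 by voom, and 2.82 to 4.36 with each library left out. Over all genes, 459 were called between genotypes in BMPC, 262 by voom, 18 with quality weights, 429 with another scaling, and 0 when the 6 BMPC libraries were fitted alone (limma, 688 at an unadjusted p under 0.05, and 2342 in the fit to all libraries). Another scaling moved the median of all genes in Dnmt3-deficient BMPC from -0.84 to -0.69 against nB and from -0.73 to -0.57 against GCB. GCB libraries share stems in their titles across genotypes, and same-stem libraries did not deviate together (correlations -8.06e-05, -0.0171 and 0.0257), so they were not treated as pairs. The replicate block set the GCB level at the stem of replicate 1 and not at the GCB mean. Its comparisons with nB are therefore not those of the main fit. Under it, calls lost between GCB and nB included Cd22 in both genotypes (adjusted p = 0.0629 and 0.0571) and Btla in Dnmt3-deficient cells (adjusted p = 0.116). These losses, and the count of 3 with that block, do not show how differences of the GCB means depend on pairing. The cause of the other changes was not tested. Depth limits what BMPC can show, where a member at 0 may still be present below 3 reads per library.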
